A study of Mus musculus with 13 samples.

Results

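The cytochrome P450 enzymes of families 1 to 3 were examined in mouse liver tumours given siRNA against Yap, the transcriptional coactivator encoded by Yap1. The genes were taken as all symbols that begin with Cyp, a family number from 1 to 3, a subfamily letter and a gene number, with symbols marked as pseudogenes by -ps left out. This rule gave 59 of the 23361 gene symbols in the deposited tables, in 16 subfamilies from Cyp1a to Cyp3a. All mice carried a germline deletion of Mst1 (Mst1-/-) and floxed alleles of Mst2 (Mst2Flox/Flox) on a mixed C57BL/6; 129Sv background. They had been injected with Adeno-Cre, a virus that delivers Cre recombinase, and had developed hepatocellular carcinoma seen by ultrasound. The siYap group comprised 5 tumour RNA libraries from mice injected intravenously for 9 days with lipid nanoparticles loaded with Yap siRNA. The siLuc group comprised 8 libraries from mice given nanoparticles with luciferase siRNA for the same 9 days, so that the control tumours also lacked Mst1 and, in cells that had taken up the virus, Mst2. The labels do not give the age or sex of the animals or say which libraries came from separate animals. The p-values below therefore measure the spread between these libraries, part of which may be technical.

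P450 enzymes are heme proteins of the endoplasmic reticulum that insert an oxygen atom into their substrates, using electrons passed on from NADPH by P450 oxidoreductase (Por) and, for some reactions, by cytochrome b5. Families 1 to 3 oxidise drugs, pollutants, steroids, retinoids, bile acids and arachidonate, and the liver is their main site. Several are inducible through ligand-activated receptors, with Ahr acting on the Cyp1 genes, the constitutive androstane receptor Nr1i3 on Cyp2b and Cyp2c genes and the pregnane X receptor Nr1i2 on Cyp3a genes. In the normal liver lobule most of them are made by hepatocytes around the central vein, whereas Cyp2f2 is a standard marker of the hepatocytes near the portal tract.

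The target of the siRNA was checked before the P450 genes. Yap1 was present at 2.23 to 4.17 FPKM (fragments per kilobase of transcript, scaled to library size) in the siYap libraries, against 8.10 to 11.9 FPKM in the siLuc libraries, with no overlap. Estimated fragments summed to between 23637021 and 37043914 per library. siYap libraries 1 and 3 had the lowest totals and the highest ribosomal precursor signal, with 1160 and 1882 CPM (counts scaled to library size) of Rn45s, against 480 to 812 in the other 11 libraries. siLuc library 8 was the only one with substantial Y-linked fragments, at 28874, and held 393 Xist fragments, so it came from a male and the other 12 libraries carried the female pattern. A code in the deposited names begins with 6, 7 or 8 and is followed by a number that several libraries share. The 5 siYap libraries carried 3 such numbers and the 8 siLuc libraries carried 5. What the code or the number stands for is not given in the sources used here. Tumour libraries expressed hepatocyte secretory genes strongly in both groups, for example Ttr at 2451 to 4405 FPKM in siYap and 1845 to 3594 FPKM in siLuc.

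Of the 59 P450 genes, 48 had enough fragments to be tested, and 25 of them differed between siYap and siLuc tumours at an adjusted p under 0.05 in edgeR's quasi-likelihood test. That was 52.08% of the tested P450 genes, against 30.8% of all 15132 genes tested. The excess lay on the higher side. In siYap tumours 20 P450 genes were higher (41.67% of those tested, against 16.0% of all genes), and 5 were lower (10.42%, against 14.8% of all genes). For 13 P450 genes every siYap library lay above every siLuc library in FPKM, which is 27.08% of those tested, against 5.57% of all genes. For Cyp2a12 alone every siYap library lay below every siLuc library, which is 2.08% of those tested, against 5.66% of all genes. The median log2 fold change of the 48 genes, siYap over siLuc, was 1.57, against -0.0026 over all genes tested. The calls came from these same libraries, so signs within the code digits are no separate test of them. All 20 higher genes kept their sign within each of the 3 code digits, and 4 of the 5 lower genes did. The exception was Cyp2j9, with a difference of 0.19 in log2 CPM within digit 8, which holds 1 library of each group. The siLuc library of digit 8 is library 8, which came from a male, so treatment and sex cannot be told apart in the digit 8 values given below. With siYap libraries 1 and 3 left out together, 19 genes were higher and 4 lower. With siYap library 1 and siLuc library 8 left out together, 20 were higher and 6 lower.

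**Figure D1:**
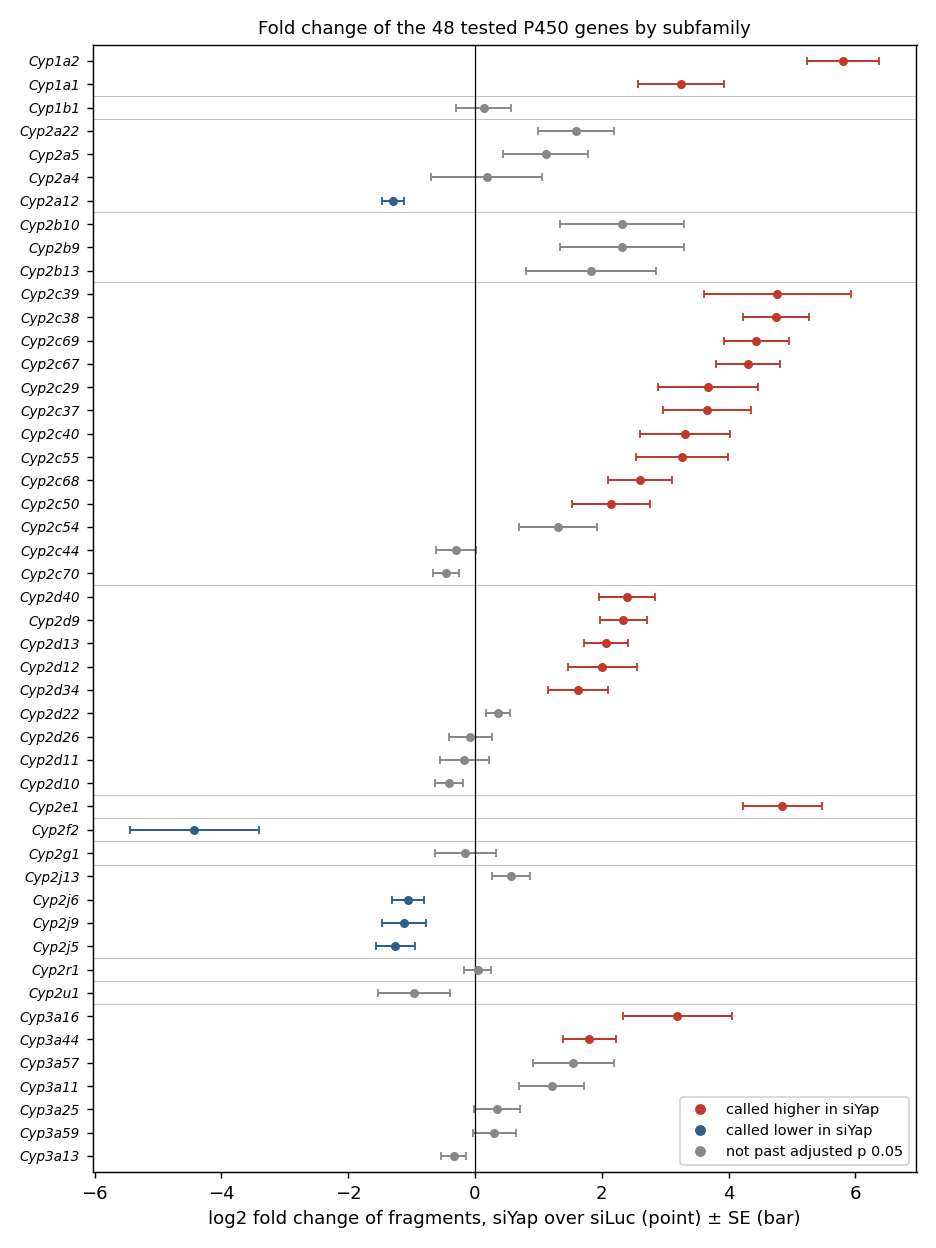
The log2 fold change of estimated fragments (horizontal axis, siYap over siLuc, point with its standard error as a bar) is shown for the 48 tested P450 genes, which run down the page by subfamily. Cyp1a and most Cyp2c genes lie to the right of 0, Cyp2f2 and 3 of the 4 tested Cyp2j genes lie to the left, and colours mark the 20 genes called higher and the 5 called lower.

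Summed over all 59 genes, the P450s stood at 5004, 10420, 11620, 14770 and 9904 FPKM in siYap libraries 1 to 5, against a lowest, median and highest of 1856, 4114 and 6368 FPKM in the siLuc libraries. The groups overlapped only through siYap library 1, which lay below the highest siLuc library. The genes took 1.09% to 2.43% of all fragments in siYap libraries and 0.443% to 1.28% in siLuc libraries. Much of this difference was Cyp2e1, which made up 30.0% to 47.1% of the summed FPKM in siYap libraries and 0.633% to 7.06% in siLuc libraries. Without Cyp2e1 the sum was 5818 ± 1651 FPKM in siYap (SD, n = 5) and 3697 ± 1335 FPKM in siLuc (SD, n = 8), with overlapping ranges of 3502 to 8135 and 1771 to 5922. In bulk RNA such as this, fewer cells of a type and less RNA per cell cannot be told apart.

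**Figure D2:**
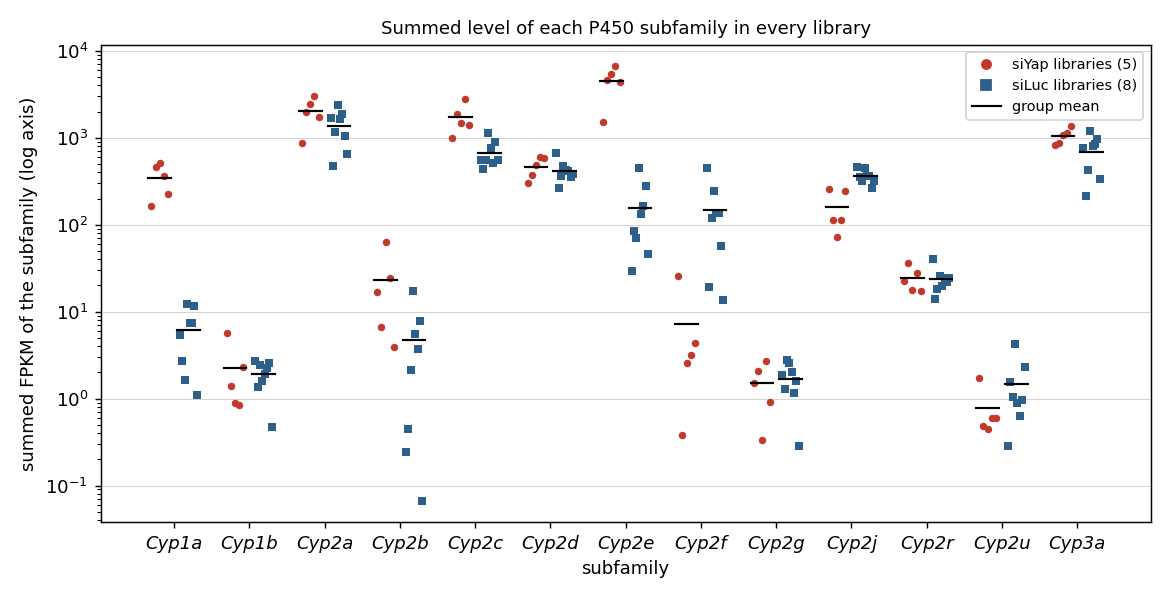
Each point is the summed FPKM of a subfamily in 1 library (vertical log axis), with the 5 siYap libraries left of the 8 siLuc libraries, bars at the group means, and the 13 subfamilies that reach a mean of 1 FPKM in either group. Cyp1a, Cyp2c and Cyp2e have higher means in siYap, the ranges of Cyp2d and Cyp3a overlap, and Cyp2f and Cyp2j have lower means in siYap.

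Both Cyp1a genes were higher in siYap tumours, and Cyp1a2 had the largest fold change of all 48 tested P450 genes. Cyp1a2 oxidises caffeine and aromatic amines and is made by hepatocytes around the central vein, and Cyp1a1 is the classical Ahr-induced enzyme that attacks polycyclic aromatic hydrocarbons. The genes lie side by side on chromosome 9 in opposite directions, Cyp1a2 at chr9:57676937-57683655 and Cyp1a1 at chr9:57687928-57703824 (RefSeq, build GRCm38.p6, as are all positions below). Cyp1a2 stood at 162, 455, 506.5, 366 and 226 FPKM in the siYap libraries, against a lowest, median and highest of 1.11, 6.26 and 11.99 FPKM in siLuc. Every siYap library was thus above every siLuc library by a wide margin, and siYap library 1 was the lowest of the 5. Cyp1a2 had a log2 fold change of 5.81 (SE 0.569, adjusted p = 1.52e-05), and the difference in log2 CPM was 6.19, 6.01 and 7.65 within code digits 6, 7 and 8. Cyp1a1 was far less abundant, at 0.393, 1.31, 1.09, 0.926 and 0.402 FPKM in siYap, against 0 to 0.181 FPKM in siLuc. It rested on 357 fragments over the 5 siYap libraries and 66 over the 8 siLuc libraries. The groups did not overlap, and the log2 fold change was 3.25 (SE 0.679, adjusted p = 0.00272). Cyp1b1, a mainly extrahepatic enzyme that hydroxylates estradiol, stood at 0.854 to 5.73 FPKM in siYap and 0.466 to 2.69 FPKM in siLuc, with a log2 fold change of 0.13 (adjusted p = 0.831). Its highest value came from siYap library 1, without which its estimate changed sign, to -0.42.

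Cyp2e1, which oxidises ethanol, acetone, paracetamol and small solvents and is a standard pericentral marker, was the most abundant P450 in every siYap library. In the siLuc libraries it ranked between 5 and 15 among the 59 genes. It stood at 1502, 4671, 5479, 6631 and 4342 FPKM in siYap, against a lowest, median and highest of 29.5, 109 and 446.1 FPKM in siLuc. The lowest siYap value, again from library 1, was above the highest siLuc value, which came from library 4. Cyp2e1 had a log2 fold change of 4.85 (SE 0.62, adjusted p = 9.99e-05), and the within-digit differences were 5.77, 5.05 and 6.57 in log2 CPM. Both fold changes kept their call in all 28 alternatives, over which Cyp1a2 ranged from 5.63 to 6.25 and Cyp2e1 from 4.67 to 5.46. Of each Cyp1a2 and Cyp2e1 transcript, at most 5.0% of the 50-base windows occur in another gene's transcripts.

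The 250 bases before the RefSeq start are shown for the pair of genes with the greatest rises among abundant P450s and for the lower genes Cyp2f2 and Cyp2a12, so that their start regions can be compared. Capitals mark 2 short motifs on either strand, the Tcf/Lef core CTTTGA and the TATA element TATAAA. The windows are chr9:57683656-57683905 (minus strand) for Cyp1a2, chr7:140763569-140763818 (plus) for Cyp2e1, chr7:27119705-27119954 (plus) for Cyp2f2 and chr7:27028840-27029089 (plus) for Cyp2a12, each written 5′ to 3′ on the gene's strand.
Cyp1a2: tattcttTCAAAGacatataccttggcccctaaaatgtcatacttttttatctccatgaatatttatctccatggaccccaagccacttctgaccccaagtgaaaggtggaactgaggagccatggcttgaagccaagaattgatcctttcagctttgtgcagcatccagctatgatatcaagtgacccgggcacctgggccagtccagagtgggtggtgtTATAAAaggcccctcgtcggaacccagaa
Cyp2e1: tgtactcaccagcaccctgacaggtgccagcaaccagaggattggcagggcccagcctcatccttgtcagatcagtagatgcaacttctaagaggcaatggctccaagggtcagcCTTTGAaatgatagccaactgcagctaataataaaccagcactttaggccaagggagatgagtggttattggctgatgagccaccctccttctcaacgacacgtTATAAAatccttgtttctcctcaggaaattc
Cyp2f2: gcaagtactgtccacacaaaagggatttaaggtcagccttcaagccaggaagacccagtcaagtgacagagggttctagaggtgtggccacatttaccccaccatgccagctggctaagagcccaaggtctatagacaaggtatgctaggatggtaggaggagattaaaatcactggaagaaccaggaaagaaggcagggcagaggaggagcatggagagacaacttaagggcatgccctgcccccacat
Cyp2a12: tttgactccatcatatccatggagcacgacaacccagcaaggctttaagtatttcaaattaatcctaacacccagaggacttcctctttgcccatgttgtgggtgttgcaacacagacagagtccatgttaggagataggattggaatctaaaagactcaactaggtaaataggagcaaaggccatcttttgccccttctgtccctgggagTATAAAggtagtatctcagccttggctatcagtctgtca

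The Cyp1a2 window held TCAAAG, the reverse complement of the Tcf/Lef core, at -243 to -238 from the start and TATAAA at -29 to -24. The Cyp2e1 window held CTTTGA at -135 to -130 and TATAAA at -31 to -26. In the Cyp2a12 window TATAAA stood at -39 to -34 with no Tcf/Lef core, and the Cyp2f2 window held neither. The search used 5 motifs on both strands and allowed them to overlap, over the 51 member promoters and all 32851 promoters of the RefSeq table. CTTTGA was in 11 member promoters (21.6%) and 13.8% of all promoters. Of these 11 genes, Cyp1a2, Cyp2e1, Cyp2c29 and Cyp2c39 were called higher, whereas Cyp2j5, with the core at -194 to -189, was called lower. The others, Cyp2c70, Cyp3a11, Cyp3a13, Cyp3a25, Cyp3a57 and Cyp3a59, were not called. Genes called higher without the core included Cyp2c37, Cyp2c38, Cyp2c50, Cyp2c67, Cyp2c68, Cyp2c69 and Cyp2d9. The windows shown above thus do not stand for the called genes as a whole. TATAAA was in 24 (47.1%) and 12.4%. The nuclear receptor hexamer AGGTCA, which the Cyp2f2 window holds at -221 to -216, was in 15 (29.4%) and 14.0%. The Ahr core GCGTG was in 8 (15.7%) and 28.2%, and the Tead core CATTCC was in 8 (15.7%) and 12.6%. These are matches of letters and not measurements of binding.

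The Cyp2c genes formed the broadest change: 10 of the 13 tested were higher in siYap tumours, none was lower and 3 did not pass the test. Among all genes tested 16.0% were higher and 14.8% lower. Many Cyp2c enzymes convert arachidonate and other fatty acids to epoxides and alcohols, besides oxidising drugs. All but Cyp2c44 lie in a cluster of 14 genes at chr19:39006940-40187286, where 12 were tested and 10 were higher. Cyp2c29, a pericentral arachidonate epoxygenase, stood at 134, 241, 208, 519 and 200.1 FPKM in siYap, against a lowest, median and highest of 2.17, 9.75 and 82.7 FPKM in siLuc. The groups did not overlap, and the highest library in each was number 4. Cyp2c29 had a log2 fold change of 3.67 (SE 0.792, adjusted p = 0.00377), and 4.52 without siLuc library 4. Cyp2c38 stood at 42.4, 86.8, 80.0, 44.8 and 46.9 FPKM in siYap, against 0.456, 1.995 and 4.99 FPKM in siLuc as lowest, median and highest. It had the smallest adjusted p of the subfamily (log2 fold change 4.75, SE 0.526, adjusted p = 3.85e-05), with no overlap between the groups.

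Cyp2c67 and Cyp2c69 had similar fold changes at different levels. Cyp2c67 stood at 69.2, 279, 120.2, 214 and 187 FPKM in siYap, against 2.79, 8.42 and 20.4 FPKM in siLuc as lowest, median and highest. Cyp2c69, a form more abundant in female mouse liver, stood at 9.604, 12.2, 2.21, 4.56 and 1.17 FPKM in siYap, against 0.129, 0.231 and 0.441 FPKM in siLuc. Neither overlapped between the groups, with log2 fold changes of 4.30 (SE 0.503, adjusted p = 5.12e-05) for Cyp2c67 and 4.44 (SE 0.515, adjusted p = 4.13e-05) for Cyp2c69. Cyp2c69 was highest in siYap libraries 1 and 2, where Cyp2c39 was lowest.

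Cyp2c37 and Cyp2c50, pericentral genes next to each other with Cyp2c54, were also higher. Cyp2c37 stood at 39.6, 98.4, 129, 229 and 60.4 FPKM in siYap, against 1.48, 5.19 and 29.0 FPKM in siLuc as lowest, median and highest, without overlap (log2 fold change 3.66, SE 0.696, adjusted p = 0.0017). Without siLuc library 4 it was 4.25. Cyp2c50 stood at 159, 533, 337, 719.8 and 237 FPKM in siYap, against 9.84, 70.7 and 246.1 FPKM in siLuc. Here siLuc library 4 lay above siYap libraries 1 and 5, and the log2 fold change was 2.14 (SE 0.611, adjusted p = 0.0173). The adjusted p was 0.0505 without siYap library 4, 0.0647 for replicates 1 to 5 of each group and 0.0711 with counts summed per shared number. Cyp2c54 stood at 22.1, 36.1, 43.6, 129 and 31.7 FPKM in siYap, against 2.76, 19.2 and 43.1 FPKM in siLuc, and its log2 fold change of 1.31 did not pass (SE 0.611, adjusted p = 0.117).

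The other higher Cyp2c genes differed in their library pattern. Cyp2c39, a retinoic acid hydroxylase, stood at 2.44, 3.62, 139, 222 and 141 FPKM in siYap, against 0.0432 to 12.2 FPKM in siLuc. siYap libraries 1 and 2 fell inside the siLuc range and libraries 3 to 5 far above it. Those same libraries 1 and 2 share the code digit 6 and a number, and the within-digit differences were 0.21, 6.58 and 9.31 in log2 CPM for digits 6, 7 and 8 (log2 fold change 4.77, SE 1.16, adjusted p = 0.00763). Cyp2c68, at 95.1 to 310.3 FPKM in siYap and 6.84 to 65.7 FPKM in siLuc, was separated between the groups (log2 fold change 2.61, SE 0.507, adjusted p = 0.00197). So was Cyp2c55, at 3.83 to 25.5 FPKM in siYap and 0.118 to 2.29 FPKM in siLuc (log2 fold change 3.26, SE 0.722, adjusted p = 0.0044). Its estimate was 2.47 without siYap library 4, which held the highest value. Cyp2c40 stood at 4.96, 11.7, 2.98, 3.12 and 1.02 FPKM in siYap, against 0.0282, 0.412 and 1.27 FPKM in siLuc (log2 fold change 3.32, SE 0.707, adjusted p = 0.00351). The groups overlapped through siYap library 5 and siLuc library 4, and the estimate was 2.63 without siYap library 2. With counts summed over libraries that share a number, the adjusted p of Cyp2c40 was 0.0509.

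The last gene of the cluster was not called. Cyp2c70, the mouse enzyme that makes muricholic acids from bile acids, stood at 343, 221, 187, 353 and 277 FPKM in siYap, against 225, 390.5 and 475 FPKM in siLuc as lowest, median and highest. The ranges overlapped, and the log2 fold change of -0.46 did not pass (SE 0.201, adjusted p = 0.0954). Cyp2c44, an arachidonate epoxygenase outside the cluster at chr19:44005022-44029256, was also not called, at 51.3 to 172 FPKM in siYap and 65.4 to 190.7 FPKM in siLuc (log2 fold change -0.30, adjusted p = 0.483). Cyp2c65 was too sparse to pass the filter on low counts, yet it had 0 fragments in all 5 siYap libraries and 1 to 64 fragments in each of the 8 siLuc libraries, 156 in all. A count of 0 allows up to 3 fragments per library, and without the filter edgeR gave an adjusted p of 0.00386 for the lower level in siYap. Its neighbour Cyp2c66 had 2 fragments in all over the siYap libraries and 4 over the siLuc libraries.

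**Figure D3:**
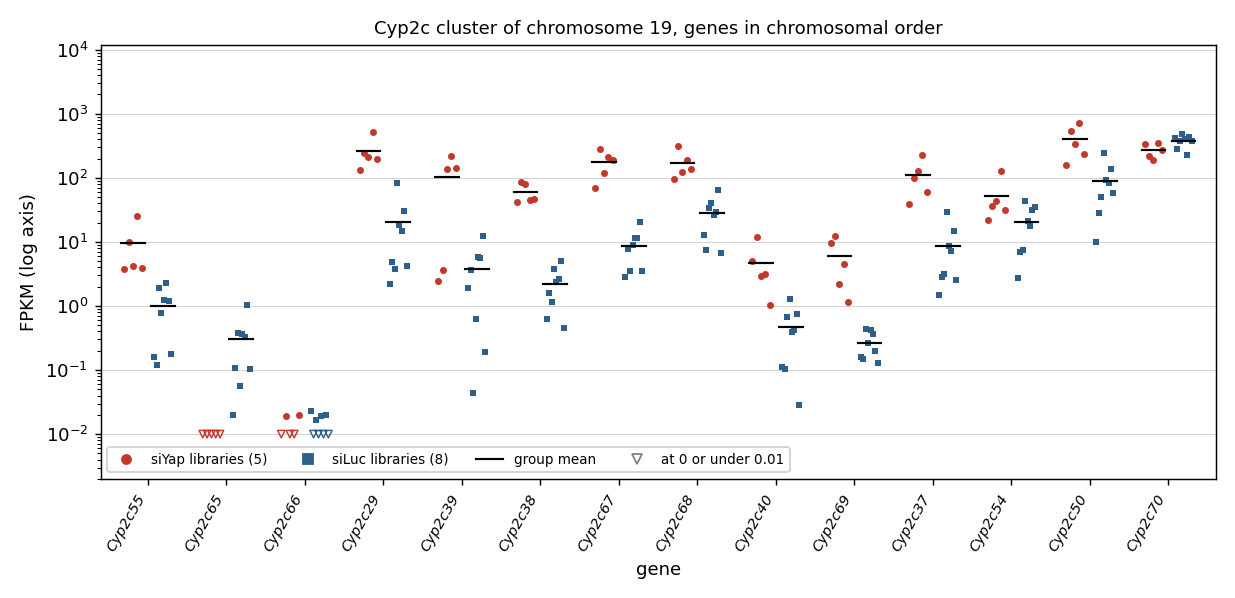
FPKM (log axis) of the 14 genes of the Cyp2c cluster on chromosome 19 in each library, ordered by annotated start, with siYap points left of siLuc points, bars at the group means and open triangles for values at 0. The 10 called genes have higher means in siYap, and among them Cyp2c39, Cyp2c40 and Cyp2c50 overlap between the groups. Cyp2c70 at the end of the cluster also overlaps, and Cyp2c65 is at 0 in every siYap library.

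Many Cyp2c genes are near-identical, which limits how far their values can be read as separate. Of the 50-base windows of the Cyp2c40 transcripts, 72.1% also occur in transcripts of another gene, and the shares were 54.8% for Cyp2c69, 52.8% for Cyp2c67, 43.3% for Cyp2c68, 30.7% for Cyp2c50 and 30.1% for Cyp2c37. How fragments that match several genes were assigned is not given in the sources used here, so the split among these genes is uncertain. Cyp2c29 and Cyp2c38 shared 2.1% and 7.4% of their windows, and Cyp2c55 shared 0.5%. Over all 59 genes, 19 shared at least 25% of their windows, 9 of them called; 58 genes could be matched to transcripts. The upstream 250 bases were 91.3% identical between Cyp2c68 and Cyp2c69 and 84.3% between Cyp2c37 and Cyp2c50.

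Cyp2f2 showed the largest fall of the P450 genes and the opposite direction to Cyp2e1. It activates naphthalene and marks periportal hepatocytes in the liver. It stood at 25.8, 0.385, 2.58, 3.14 and 4.38 FPKM in siYap, against a lowest, median and highest of 13.8, 127.5 and 452 FPKM in siLuc. siYap library 1 lay above siLuc libraries 8 (13.8 FPKM) and 2 (19.4 FPKM), and the other 4 siYap libraries lay below all 8. Cyp2f2 had a log2 fold change of -4.43 (SE 1.01, adjusted p = 0.0054), and -5.68 without siYap library 1. The within-digit differences were -4.78, -5.46 and -1.63 in log2 CPM. None of its 50-base windows occurs in another gene's transcripts, although 274 exonic bases overlap Gm15883 on the opposite strand. The siYap library with the highest Cyp2f2, number 1, had the lowest Cyp1a2 and Cyp2e1 of its group. The siLuc libraries were mixed. Library 1 had the highest Cyp2f2 and the lowest Cyp2e1 (29.5 FPKM) of the siLuc group. However, siLuc library 4 had the highest Cyp2e1 (446.1 FPKM) and Cyp1a2 (11.99 FPKM) with Cyp2f2 at 241.5 FPKM. In siLuc library 8 both Cyp2f2 and Cyp1a2 (1.11 FPKM) were the lowest of the group.

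Cyp2f2 lies in a cluster of 13 genes of the Cyp2a, 2b, 2f, 2g, 2s and 2t subfamilies at chr7:25802469-27158564. Of its 9 tested genes none was called higher and 2 were lower, against 16.0% and 14.8% of all genes tested. Cyp2e1 lies alone far along the same chromosome at chr7:140763819-140774990. The second lower gene of the cluster was Cyp2a12, which hydroxylates steroids and bile acids. It stood at 187, 216, 134.5, 225 and 273 FPKM in siYap, against 432, 528 and 589 FPKM in siLuc as lowest, median and highest. The groups did not overlap, and the siLuc libraries varied little, with a coefficient of variation of 11.7%. Cyp2a12 had a log2 fold change of -1.29 (SE 0.174, adjusted p = 0.000105), from -1.40 to -1.13 over the 28 alternatives.

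Cyp2a5 and Cyp2a4, a near-identical pair, did not pass the test. Cyp2a5, the coumarin hydroxylase, was the most abundant P450 after Cyp2e1 in all 5 siYap libraries, at 654, 1726, 2231, 2763 and 1386 FPKM. In siLuc it ranged from 34.2 through a median of 869 to 1629 FPKM, a spread of 47.6-fold within the group, and it was the most abundant P450 in 5 of the 8 libraries. The log2 fold change was 1.12 (SE 0.669, adjusted p = 0.22). Cyp2a4, a testosterone hydroxylase more abundant in females, stood at 27.3, 14.8, 76.0, 40.6 and 41.8 FPKM in siYap, against 0.621, 17.6 and 172 FPKM in siLuc as lowest, median and highest. siLuc library 4 lay above all others, and the log2 fold change was 0.19 (SE 0.876, adjusted p = 0.886). The transcripts share 40.8% (Cyp2a5) and 38.0% (Cyp2a4) of their windows with other genes. Cyp2a22 stood at 3.82, 36.1, 1.30, 2.26 and 19.2 FPKM in siYap, with 2 libraries high and 2 below all siLuc libraries, against 3.02 to 5.68 FPKM in siLuc (log2 fold change 1.59, SE 0.602, adjusted p = 0.0585).

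The upstream 250 bases of Cyp2a5 (chr7:26835089-26835338) and Cyp2a4 (chr7:26306942-26307191), both on the plus strand, are shown because the genes differ so much in level while these windows were 97.6% identical. Capitals mark the 4 mismatches and 2 unaligned end bases.
Cyp2a5: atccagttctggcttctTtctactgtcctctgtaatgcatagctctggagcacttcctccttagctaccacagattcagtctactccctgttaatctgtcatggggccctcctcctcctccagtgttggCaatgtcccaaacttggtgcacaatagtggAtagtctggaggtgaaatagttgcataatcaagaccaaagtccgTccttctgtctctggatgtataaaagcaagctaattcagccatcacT
Cyp2a4: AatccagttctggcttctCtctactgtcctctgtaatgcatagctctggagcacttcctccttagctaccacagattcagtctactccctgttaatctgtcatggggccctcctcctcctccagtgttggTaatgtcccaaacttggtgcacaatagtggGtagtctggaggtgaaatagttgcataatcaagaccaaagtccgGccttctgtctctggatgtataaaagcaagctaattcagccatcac

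The Cyp2b genes, which include the standard Nr1i3 target Cyp2b10 and the female-biased Cyp2b9 and Cyp2b13, gave no call. Cyp2b9 stood at 14.7, 5.51, 61.3, 23.7 and 2.58 FPKM in siYap, against 0.0672, 2.65 and 15.8 FPKM in siLuc as lowest, median and highest. The groups overlapped, and the log2 fold change of 2.32 did not pass (SE 0.977, adjusted p = 0.0852). Without siLuc library 4, which held the highest control value, the adjusted p was 0.0328. Cyp2b13, at 0.137 to 1.42 FPKM in siYap and 0 to 1.41 FPKM in siLuc (adjusted p = 0.187), and Cyp2b10, at 0.0324 to 1.18 FPKM in siYap and 0 to 0.304 FPKM in siLuc (adjusted p = 0.0841), also did not pass. Without siLuc library 4 Cyp2b13 did, at an adjusted p of 0.0125. Cyp2b19 had 12 fragments over the siYap libraries and 3 over the siLuc libraries, and Cyp2b23 had 1 and 0; neither was tested. In the same cluster Cyp2g1, an olfactory form, stood at 0.337 to 2.71 FPKM in siYap and 0.286 to 2.76 FPKM in siLuc (log2 fold change -0.15, adjusted p = 0.829). The extrahepatic Cyp2s1 stayed at or under 0.112 FPKM in siYap and 0.187 FPKM in siLuc, and Cyp2t4 at or under 0.590 FPKM in siYap and 0.1201 FPKM in siLuc, both untested.

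**Figure D4:**
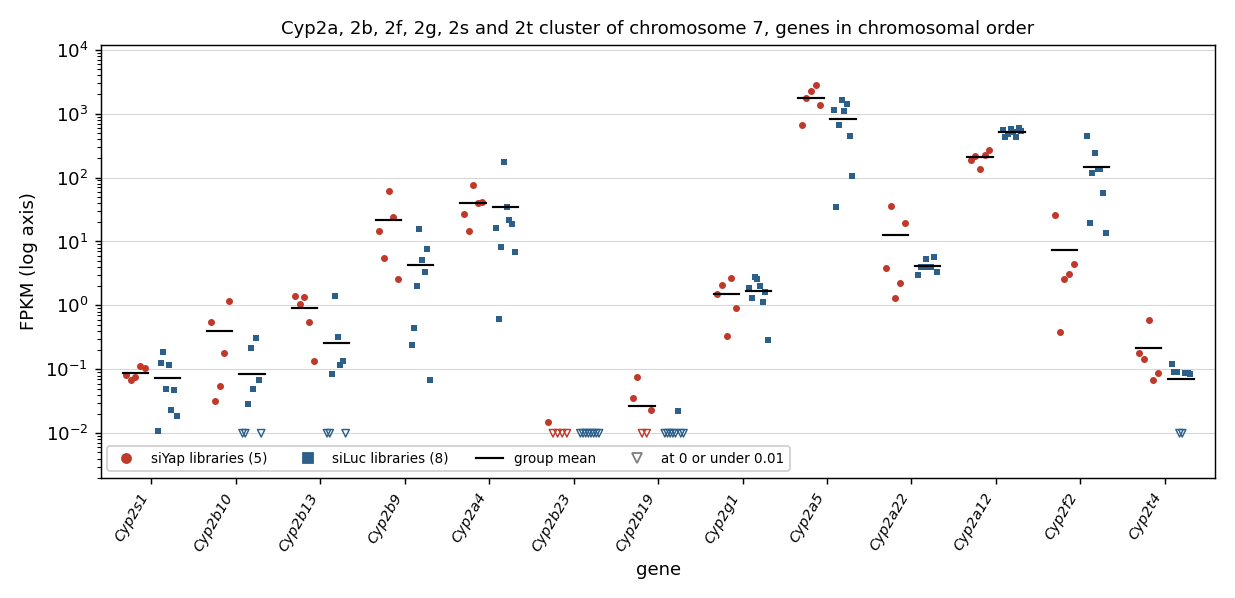
FPKM (log axis) of the 13 P450 genes of the chromosome 7 cluster in each library, ordered by annotated start, with siYap points left of siLuc points, bars at the group means and open triangles for values at 0. Cyp2a12 lies lower in every siYap library, and Cyp2f2 has a lower mean in siYap with overlap through siYap library 1. The groups of Cyp2a4, Cyp2a5 and Cyp2b9 also overlap.

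Of the 9 Cyp2d genes, in a cluster at chr15:82370527-82794452, 5 were higher in siYap tumours and none was lower. Over all genes tested the shares were 16.0% higher and 14.8% lower. Cyp2d9, a male-biased testosterone hydroxylase, stood at 37.4, 91.1, 129, 69.8 and 143 FPKM in siYap, against 6.01, 18.5 and 31.9 FPKM in siLuc as lowest, median and highest. The groups did not overlap, and siLuc library 8, the male one, lay inside its group at 20.3 FPKM. The log2 fold change was 2.34 (SE 0.372, adjusted p = 0.000511). Cyp2d13, which RefSeq lists as a transcribed pseudogene, stood at 28.0 to 59.97 FPKM in siYap and 3.12 to 14.1 FPKM in siLuc (log2 fold change 2.07, SE 0.346, adjusted p = 0.000666). Cyp2d40 stood at 3.32 to 11.3 FPKM in siYap and 0.261 to 1.94 FPKM in siLuc (log2 fold change 2.40, SE 0.444, adjusted p = 0.00119). Both were separated between the groups.

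Among the other Cyp2d genes 2 were called. Cyp2d12, at 0.286 to 1.26 FPKM in siYap and 0.0330 to 0.595 FPKM in siLuc, was higher (log2 fold change 2.01, adjusted p = 0.0127). Cyp2d34, at 0.282 to 0.784 FPKM in siYap and 0.0634 to 0.4405 FPKM in siLuc, was also higher (log2 fold change 1.63, adjusted p = 0.0179). Without siYap library 3 the adjusted p of Cyp2d34 was 0.0577. The remaining 4 genes were not called. Cyp2d10 stood at 105, 167, 145.5, 275 and 243 FPKM in siYap, against 187.5, 234 and 359.7 FPKM in siLuc as lowest, median and highest (log2 fold change -0.41, SE 0.222, adjusted p = 0.176). Cyp2d26, at 66.3 to 166 FPKM in siYap and 52.4 to 258 FPKM in siLuc, had a log2 fold change of -0.07 (adjusted p = 0.892). Cyp2d22, at 11.4 to 22.8 FPKM in siYap and 7.47 to 16.0 FPKM in siLuc, had one of 0.36 (adjusted p = 0.161), and Cyp2d11, with 47 fragments over the siYap libraries and 100 over the siLuc libraries, one of -0.17 (adjusted p = 0.768). The summed Cyp2d level was accordingly 303 to 599 FPKM in siYap and 261 to 662 FPKM in siLuc.

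The Cyp2j genes moved the other way. Of the 4 tested, 3 were lower in siYap tumours and none was higher, against 14.8% and 16.0% of all genes tested. Enzymes of this subfamily convert arachidonate to epoxides, and the genes lie together at chr4:96042660-96664171. Cyp2j5, an epoxygenase of mouse liver and kidney, stood at 227, 72.0, 48.2, 73.3 and 189 FPKM in siYap, against 209, 274 and 373 FPKM in siLuc as lowest, median and highest. Only siYap library 1 reached into the siLuc range. The log2 fold change was -1.26 (SE 0.306, adjusted p = 0.00675). Cyp2j6 stood at 24.6, 39.1, 18.9, 33.8 and 43.0 FPKM in siYap, against 42.9, 59.5 and 105 FPKM in siLuc. The overlap was limited to siYap library 5 and siLuc library 7, which had nearly the same value, and the log2 fold change was -1.06 (SE 0.248, adjusted p = 0.00545). With siYap libraries 1 and 3 left out its adjusted p was 0.0516.

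Cyp2j9 stood at 7.83, 3.30, 4.92, 5.19 and 11.7 FPKM in siYap, against 5.97, 15.7 and 20.5 FPKM in siLuc as lowest, median and highest. Its ranges overlapped more, and the log2 fold change was -1.11 (SE 0.345, adjusted p = 0.0246). The adjusted p was 0.0561 without siYap library 2, 0.0725 without library 3 and 0.0576 without library 4. Cyp2j13 was scarce, at 0.192 to 0.334 FPKM in siYap and 0.0794 to 0.236 FPKM in siLuc (log2 fold change 0.57, adjusted p = 0.16). Cyp2j8, Cyp2j11 and Cyp2j12, with 24, 3 and 1 fragments over the siYap libraries and 60, 5 and 0 over the siLuc libraries, were not tested. Almost none of the windows of these genes were shared, at most 1.3% in Cyp2j11.

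The main drug-metabolising Cyp3a genes did not pass the test, and the 2 that were higher were scarce. Cyp3a11, the principal Nr1i2 target and a broad drug and steroid oxidase, stood at 393, 379, 626, 418 and 701.6 FPKM in siYap, against 50.4, 157 and 487 FPKM in siLuc as lowest, median and highest. siLuc libraries 4 and 7 lay inside the siYap range, and the log2 fold change was 1.21 (SE 0.512, adjusted p = 0.086). Cyp3a11 was called higher in 8 alternatives: without siLuc library 4 (adjusted p = 0.049) or 7 (0.0339), with the code digit as a term (log2 fold change 1.90, adjusted p = 0.00951), with the shared number as a random effect (0.0363), in 3 limma fits on FPKM (0.0334 to 0.0463) and in the fit with a replicate block. Cyp3a25 stood at 325, 383, 339, 554 and 531 FPKM in siYap, against 81.2, 369 and 571 FPKM in siLuc (log2 fold change 0.35, SE 0.363, adjusted p = 0.481). Cyp3a13, outside the cluster at chr5:137892933-137925610, stood at 82.0 to 128 FPKM in siYap and 72.3 to 168.5 FPKM in siLuc (log2 fold change -0.34, adjusted p = 0.212).

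Cyp3a44 and Cyp3a16, forms more abundant in female or young mice, were higher at low levels. Cyp3a44 stood at 0.389, 0.708, 2.003, 1.38 and 1.01 FPKM in siYap, against 0.115, 0.316 and 0.497 FPKM in siLuc as lowest, median and highest (log2 fold change 1.81, SE 0.422, adjusted p = 0.00527), with siYap library 1 inside the siLuc range. Cyp3a16 stood at 0.433, 0.248, 1.94, 4.25 and 0.356 FPKM in siYap, against 0, 0.105 and 0.409 FPKM in siLuc (log2 fold change 3.19, SE 0.858, adjusted p = 0.0124). Its high values came from siYap libraries 3 and 4, and without library 4 the log2 fold change was 2.23 and the adjusted p was 0.0591. Cyp3a59, whose upstream window was 95.6% identical to that of Cyp3a25, stood at 15.9 to 39.1 FPKM in siYap and 7.90 to 37.8 FPKM in siLuc (adjusted p = 0.515). Cyp3a57, at 0.112 to 0.928 FPKM in siYap and 0.0344 to 0.777 FPKM in siLuc, did not pass (adjusted p = 0.0775), but without siLuc library 1 its adjusted p was 0.00523. Cyp3a41a, of whose windows 98.6% are shared, mostly with Cyp3a41b, had 1 fragment in siYap and 2 in siLuc.

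The remaining single-gene subfamilies gave no call. Cyp2r1, a vitamin D hydroxylase, stood at 22.4, 35.8, 17.8, 27.7 and 17.4 FPKM in siYap, against 14.0, 23.1 and 40.2 FPKM in siLuc as lowest, median and highest (log2 fold change 0.04, SE 0.215, adjusted p = 0.892). Cyp2u1, a fatty acid hydroxylase, stood at 0.450 to 1.72 FPKM in siYap and 0.282 to 4.26 FPKM in siLuc (log2 fold change -0.96, adjusted p = 0.205), and 548 of its exonic bases overlap 4930534D22Rik on the opposite strand. Cyp2w1 had 0 fragments in siYap and 1 in siLuc.

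**Figure D5:**
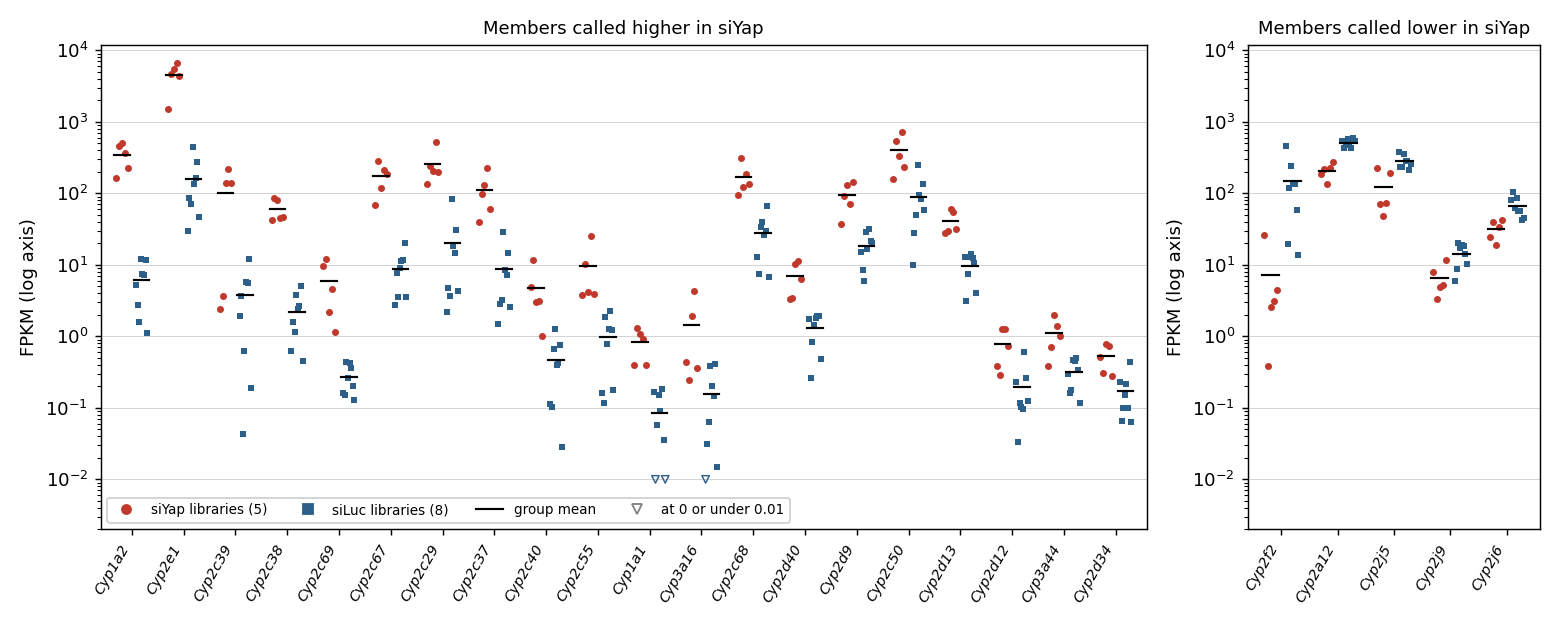
FPKM (log axis) of the 20 P450 genes called higher (left panel) and the 5 called lower (right panel) in each of the 5 siYap and 8 siLuc libraries, ordered by fold change, with bars at the group means and open triangles for values at 0. Cyp1a2 and Cyp2e1 stand apart from their siLuc values in all 5 siYap libraries, while in Cyp2c39 siYap libraries 1 and 2 lie among the siLuc points.

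The P450 genes were also read by lobular position and by sex bias, in lists chosen with earlier results of these data known. Of 8 pericentral genes (Cyp1a2, Cyp2e1, Cyp2c29, Cyp2c37, Cyp2c50, Cyp2c54, Cyp3a11 and Cyp2a5), 5 were higher, none was lower and 3 did not pass, with a median log2 fold change of 2.90. Of all genes tested, 16.0% were higher and 14.8% lower. The periportal side rests on 1 gene, Cyp2f2, which was lower. Read by sex bias in normal mouse liver, 4 of the 7 tested female-biased genes were higher (Cyp2c40, Cyp2c69, Cyp3a16 and Cyp3a44), none was lower, and the male-biased Cyp2d9 was higher too. siLuc library 8, the male one, had the lowest value of all 13 libraries for 4 of the 8 female-biased genes in the tables, Cyp2b9 (0.0672 FPKM), Cyp2c40 (0.0282 FPKM), Cyp2c69 (0.129 FPKM) and Cyp3a44 (0.115 FPKM). It was not the single lowest for Cyp2a4 (6.84 FPKM), Cyp3a16 (0.0147 FPKM), Cyp2b13 or Cyp3a41a (both at 0 in this and other libraries). Low values in this library were not particular to the female-biased genes. It was also the lowest of all 13 for Cyp1a2 (1.11 FPKM), Cyp2c38 (0.456 FPKM), Cyp2c68 (6.84 FPKM) and Cyp2d26 (52.4 FPKM), though not for Cyp2e1 (46.1 FPKM). With siLuc library 8 and siYap library 1 left out, the log2 fold change was 3.14 for Cyp2c40 (adjusted p = 0.00645), 4.14 for Cyp2c69 (adjusted p = 0.000206), 3.26 for Cyp3a16 (adjusted p = 0.0172) and 1.90 for Cyp3a44 (adjusted p = 0.00292).

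The genes that sense P450 inducers also differed between the groups. Of 9 sensors and partners 6 were higher and none was lower. Among all genes tested 16.0% were higher and 14.8% lower. Ahr stood at 29.6 to 88.4 FPKM in siYap and 8.03 to 18.1 FPKM in siLuc (log2 fold change 2.32, SE 0.284, adjusted p = 5.34e-05), and Nr1i3 at 27.6 to 97.2 FPKM in siYap and 2.28 to 17.5 FPKM in siLuc (log2 fold change 2.77, SE 0.51, adjusted p = 0.00136). Neither overlapped between the groups. Rxra, the shared partner of Nr1i2 and Nr1i3, was higher by 0.99 on the log2 scale (adjusted p = 9.2e-05), whereas Nr1i2 itself was not called, at 28.8 to 69.5 FPKM in siYap and 26.7 to 51.1 FPKM in siLuc (log2 fold change 0.22, adjusted p = 0.413). Ahrr, a feedback target of Ahr, was very scarce, at 0.032 to 0.119 FPKM in siYap and 0.012 to 0.16 FPKM in siLuc. It was not called (log2 fold change 0.20, SE 0.573, adjusted p = 0.81), and at these levels the fold change tells little. Tiparp, another Ahr target, was lower (log2 fold change -0.48, adjusted p = 0.0239). Of 11 other targets of the sensors 4 were higher (Ugt1a1, Abcc2, Por and Alas1), 2 were lower and 5 did not pass. Here too the shares over all genes were 16.0% higher and 14.8% lower. Gsta1, a glutathione transferase, was the other lower one, at 0.798 to 8.18 FPKM in siYap and 2.32 to 62.9 FPKM in siLuc (log2 fold change -3.36, adjusted p = 0.00548).

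The supply of electrons and heme to P450 enzymes was likewise examined. Of the 7 genes listed, the cytochrome b5 gene Cyb5a had no values in these data. Of the other 6 genes 4 were higher, among them Por and Alas1 of the preceding list, and none was lower. Among all genes tested 16.0% were higher. Por stood at 76.9 to 285 FPKM in siYap and 17.7 to 43.8 FPKM in siLuc, without overlap (log2 fold change 2.59, SE 0.257, adjusted p = 9.56e-06). Alas1, the rate-limiting enzyme of heme synthesis in liver, stood at 110.3 to 481 FPKM in siYap and 31.7 to 118 FPKM in siLuc (log2 fold change 1.93, SE 0.338, adjusted p = 0.000849). The mitochondrial cytochrome b5 gene Cyb5b was higher by 1.68 on the log2 scale (adjusted p = 0.00027), as was Hmox1, which degrades heme, by 1.502 (adjusted p = 0.00143). Cyb5r3 and Pgrmc1 did not pass the test. Hnf4a, the factor that many P450 genes need, was not called, at 61.1 to 139 FPKM in siYap and 76.2 to 126.5 FPKM in siLuc (log2 fold change 0.21, adjusted p = 0.34).

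Of 48 markers of liver cell types tested, 19 were called (39.6%, against 30.8% of all genes), and their part in the P450 results was not tested. Of 8 hepatocyte secretory genes none was higher and 2 were lower (Fgb and Serpina1a), and their summed level was 13040 to 22880 FPKM in siYap and 18990 to 28320 FPKM in siLuc. Of 7 cholangiocyte markers 3 were lower (Epcam, Sox9 and Spp1), with sums of 161 to 1141 FPKM in siYap and 1939 to 5055 FPKM in siLuc, while Krt19 stood at 0.449 to 1.58 FPKM in siYap and 0.0959 to 1.95 FPKM in siLuc. Of 6 neutrophil markers 5 were higher, with sums of 157 to 1176 FPKM in siYap and 35.1 to 189.7 FPKM in siLuc. Of 6 macrophage markers 3 were lower and 1 higher, with sums of 207 to 427 FPKM in siYap and 509 to 1184 FPKM in siLuc. Endothelial markers (2 of 7 higher, sums of 46.6 to 115 FPKM in siYap and 40.7 to 109 FPKM in siLuc), stellate and fibroblast markers (3 of 7 higher, sums of 53.8 to 292 FPKM in siYap and 35.6 to 107 FPKM in siLuc) and lymphocyte markers (none of 7 called, sums of 15.5 to 34.5 FPKM in siYap and 18.2 to 47.5 FPKM in siLuc) overlapped between the groups. None of these markers was at 0 in every library.

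The P450 genes also varied widely between libraries of the same treatment, which may not all come from separate animals. The median coefficient of variation of the 48 tested genes was 50.1% among siYap libraries and 68.25% among siLuc libraries, against 28.2% and 24.0% in the same groups over all genes tested. In siLuc the highest library exceeded the lowest by 277.5-fold for Cyp2a4, 47.6-fold for Cyp2a5, 15.1-fold for Cyp2e1 and 10.9-fold for Cyp1a2, against 1.36-fold for Cyp2a12. The order of abundance changed with it. In the siYap group the highest means were Cyp2e1 (4525 ± 1907 FPKM), Cyp2a5 (1752 ± 805 FPKM), Cyp3a11 (503 ± 149 FPKM) and Cyp3a25 (426 ± 108 FPKM), each as mean and SD of 5 libraries. In the siLuc group they were Cyp2a5 (811 ± 593 FPKM), Cyp2a12 (513.5 ± 60.1 FPKM), Cyp2c70 (375 ± 83.2 FPKM) and Cyp3a25 (334 ± 167 FPKM), each of 8 libraries, and Cyp2e1 came in place 8 at 156 ± 141.5 FPKM. Neighbours among these leading genes overlapped in range within each group. The siYap values of Cyp2e1 lay above all siYap values of Cyp2a5 apart from that of library 1. A mean of at least 100 FPKM was reached by 16 P450 genes in siYap and 12 in siLuc.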

How the data were processed

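RNA of the tumours was made into libraries with an Epicentre kit (ScriptSeq Complete Gold) and read on a HiSeq2500, per the labels' protocols. The submitters' processing notes name the build mm10 and the tools Cufflinks, Cuffdiff 2.1.1, TopHat2 2.0.8 and Trimmomatic 0.30. What each tool did, which annotation was used, whether strand was used and how reads with several matches were counted is not stated in those notes or in the labels. The authors deposited 1 table per library that holds, per the file headers, estimated counts of fragments per gene (raw fragments) and FPKM. Between 97.57% and 98.01% of the deposited estimated counts per library were whole. None of the 59 P450 genes carried a status mark other than OK.

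The estimated counts were rounded, filtered with edgeR's filterByExpr, scaled by TMM and tested with edgeR 4.0.16's robust quasi-likelihood test in R 4.3.3, siYap over siLuc, on all 15132 genes that passed, with Benjamini-Hochberg adjustment over them and calls at an adjusted p under 0.05. Of the P450 genes, 48 passed the filter and 11 did not. FPKM was used as the authors deposited it, for levels only. The standard error is the fold change divided by the root of F. Differences within code digits are of mean log2 CPM. No pair of libraries was a repeat, since the lowest chi-square per degree of freedom between 2 libraries was 34.8.

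The replicate numbers in the labels are shared between the groups, but same-numbered libraries did not deviate together (correlations of -0.12, 0.127, 0.072, 0.118 and -0.0873), so no pairing was used. Alternatives were other scalings, filters, thresholds and libraries, DESeq2 1.42.0, limma 3.58.1 on log2 of FPKM plus 1 or 0.1, and the shared numbers in the deposited names. Further ones, the unblocked fit of replicates 1 to 5 and the joint removal of siYap library 1 and siLuc library 8, were chosen after seeing the data.

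The P450 genes, the gene lists and the cell markers were chosen with earlier results of these data known. In each subfamily, values are given for the gene with the highest FPKM and for up to 4 called genes with the smallest p at a mean of at least 1 FPKM, and for list members at 1 FPKM or more; Cyp1a1, Cyp2a22, Cyp2c39, Cyp2c55, Cyp2c65 and Cyp2c68 were described in more detail after their values were seen. Upstream sequences and positions are from RefSeq, GRCm38.p6 (51 of the 59 genes matched a promoter), and shared 50-base windows from GENCODE M21 transcripts. The check for outlying libraries covered 96 groups of values. The list of hepatocyte transcription factors is not reported here as a whole.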

Additional observations from a re-analysis of the deposited data

Results flagged for a closer look

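Of 96 groups of library values checked, 9 had a highest library that stood apart from the rest of its group by Dixon's criterion at 95%. For normally distributed values chance alone would flag about 1 in 20 such groups. That rate may not hold here, since FPKM was used without a log scale. The groups also share libraries, and the subfamily sums contain the single genes. Library 4 of siLuc accounted for 3 of them. It held 172.2 FPKM of Cyp2a4 (next highest 35.2), 82.67 FPKM of Cyp2c29 (next highest 30.48) and 17.48 FPKM of the summed Cyp2b genes (next highest 7.876). Library 4 of siYap held 518.8 FPKM of Cyp2c29 (next highest 241) and 129.3 FPKM of Cyp2c54 (next highest 43.64). Library 1 of siYap held 25.82 FPKM of Cyp2f2 (next highest 4.382) and 1.717 FPKM of Cyp2u1 (next highest 0.6042). The other flagged values were Cyp2c39 in siLuc library 7, at 12.23 FPKM (next highest 5.771), and Cyp2r1 in siLuc library 1, at 40.16 FPKM (next highest 25.8).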

How the results depend on the processing

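Over all alternatives tried the number of P450 genes called higher ranged from 15 to 24 and the number called lower from 4 to 6. All genes called numbered 4668, against 2298 with the replicate block, 3067 in the same libraries without the block, 2984 without siYap libraries 1 and 3, 2362 at an adjusted p under 0.01, 1992 at an adjusted p under 0.05 with a log2 fold change of at least 1 in size, and 5309 by DESeq2's Wald test. With the replicate block 20 P450 genes were higher and 4 lower, and without it in the same libraries 19 and 4; the numbers do not pair the libraries. No library correlated best with its own number except replicate 4. Of 1310 gene values over 28 settings, 1239 kept direction and side of the threshold, 20 lost a call, 24 gained one and 27 changed sign.

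Calls lost included Cyp2c39 (adjusted p = 0.178 with the block), Cyp2c40 (0.0635 with the block, 0.0509 with counts summed per shared number), Cyp2c50 (0.0711 summed), Cyp2d12 (0.0535 without siYap libraries 1 and 3), Cyp2d34 (0.126 likewise), Cyp2j9 (0.108 summed) and Cyp3a16 (0.0649 summed). Calls gained included Cyp3a11 (0.019) and Cyp2c54 (0.00688) with the block. The cause of these changes was not tested.

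Sign changes occurred in 5 genes that were not called. The log2 fold change of Cyp1b1 was -0.17 with the block, -0.26 without siYap libraries 1 and 3, -0.0329 with the shared number as a random effect, -0.0017 by limma on log2(FPKM + 0.1) and -0.56 without siYap library 1 and siLuc library 8, and from -0.42 to 0.33 leaving out 1 library. Cyp2a4 was at -0.21 for replicates 1 to 5 without the block, -0.15 summed and -0.11 without siYap libraries 1 and 3, and from -0.17 to 1.38 leaving out 1 library. Cyp2d26 was at 0.0443 summed, 0.0254 with the code digit as a term, 0.0347 with the random effect, and 0.0374, 0.0387 and 0.0374 by limma with a pseudocount of 1, of 0.1 and of 1 with no filter, and from -0.21 to 0.17 leaving out 1 library. Cyp2g1 was at 0.15 with the digit and 0.17 without siYap libraries 1 and 3, and from -0.47 to 0.10 leaving out 1 library. Cyp2r1 was at -0.0148 summed, and from -0.19 to 0.16 leaving out 1 library. Leaving out single libraries kept the higher P450 genes at 19 to 23, the lower ones at 5 to 6 and all genes called at 3325 to 4633.

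Genes below 1 FPKM rest on few fragments, and 11 P450 genes were too scarce to test.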
